A study of Mus musculus with 5 samples.

Results

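Monocyte-like cells low in C1q were examined in single-cell RNA-seq data of 5 mouse synovial sarcoma (SyS) tumours. They were chosen by their own measured counts of unique molecular identifiers (UMIs, each standing for 1 captured RNA molecule). A cell entered the class when it had at least 750 detected genes, at most 25% of its UMIs from mitochondrial genes, at least 2 of the 4 monocyte genes Ly6c2, Plac8, Ccr2 and Ms4a4c detected, at least 3 UMIs of Lyz2 and Tyrobp together, at most 3 UMIs of C1qa, C1qb and C1qc together, fewer than 10 UMIs of S100a8 and S100a9 together, fewer than 5 UMIs of the SyS gene Adgrb3, and 0 UMIs of Cd3e, Nkg7 and Flt3. This rule found 250 cells among the 42516 that passed the filters on genes and mitochondrial share, out of 51670 in the matrices. All tumours arose in hSS2 mice, in which human SS18::SSX2 is expressed from the Rosa26 locus after injection of TATCre protein into the limb, and all were harvested at morbidity. The mice were young adults of a mixed CB57Bl/6-svJ strain and of both sexes by the study's reporting summary, and they had been injected as pups, but the age and sex behind each tumour were not given in the sources used here. No group without the fusion was included. The labels name the histology seen in adjacent stained tissue, which was biphasic in 2 tumours (BP) and monophasic in 1 (MP). Of the other 2 tumours, 1 combined monophasic with biphasic areas (MP+BP) and 1 poorly differentiated with monophasic areas (PD+MP). With 1 tumour in 3 of the 4 labels, values are compared between labels without a test unless stated. The cell suspensions were strained and treated to lyse red blood cells, and leukocytes in tumour vessels cannot be told apart from those in the tissue.

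Monocytes form in bone marrow, circulate in blood and enter tumours, where many turn into macrophages. In mice the classical subset carries the surface protein Ly6C, encoded by Ly6c2, and the chemokine receptor CCR2, which draws it out of the marrow and into inflamed tissue, while the patrolling subset is low in both and depends on the nuclear receptor Nr4a1. The complement component C1q is made by mature tissue macrophages, whereas blood monocytes hold little of it.

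The genes of the rule are given as a description only, since they chose the cells. Values listed for 5 tumours follow the order BP replicate 1, BP replicate 2, MP, MP+BP and PD+MP, and a level is the UMI count per 1000000 UMIs (CPM) of the summed cells of 1 class in 1 tumour. Ly6c2 (chromosome 15, 75108158 to 75111970, build GRCm38) stood at 349, 2234, 455, 326 and 2622 CPM and was detected in 150 of the 250 cells (60%). It was highest in PD+MP and BP replicate 2. Plac8 (chromosome 5, 100553725 to 100572245), which encodes a small cysteine-rich protein of myeloid and plasmacytoid cells, stood at 2595, 2096, 2796, 3205 and 4909 CPM and was detected in 226 cells (90.4%). Ccr2 (chromosome 9, 124101950 to 124113557) stood at 243, 415, 269.6, 244 and 324 CPM, a narrow range. Ms4a4c (chromosome 19, 11404770 to 11427246) stood at 387, 253, 391, 550 and 1473 CPM, highest in PD+MP. Lyz2, encoding lysozyme, held 4878, 9997, 6908, 7089 and 5895 CPM, and the C1q-high macrophages of the same tumours held 9666, 8534, 7494, 6446 and 9826 CPM. All 4 monocyte genes were detected together in 66 cells (26.4%), of which 48 came from PD+MP. Ly6c1, the near-identical neighbour of Ly6c2, stood at 0, 0, 0, 0 and 3.56 CPM.

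The limit on C1q fell in a sparse stretch. Among cells that met every other part of the rule, 203 had 0 UMIs of the 3 C1q genes, 31 had 1, 7 had 2 and 9 had 3, just inside the limit. Just outside it, 3 cells had 4 UMIs and 5 had 5, whereas 226 had 11 or more. The 252 cells above the limit are called intermediate here, since they carried monocyte genes and C1q together. They numbered 32, 3, 16, 13 and 188, and their median UMI count of 8661, 5653, 6362, 5373 and 5360 was above that of the monocyte-like cells (4410, 4629, 4456, 4268 and 3845) in every tumour.

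**Figure D1:**
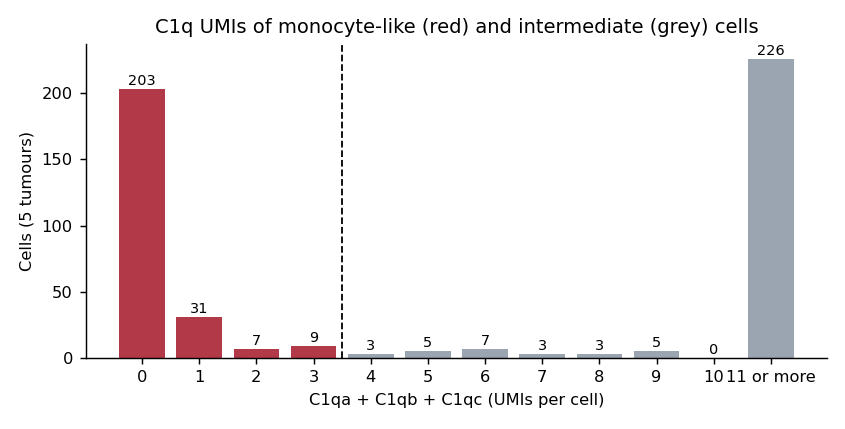
Cells of all 5 tumours (vertical axis) by their summed UMIs of C1qa, C1qb and C1qc (horizontal axis), for monocyte-like cells (red) and intermediate cells (grey), with the limit of the rule as a dashed line. Most monocyte-like cells (203 of 250) had 0 UMIs, and 226 of the 252 intermediate cells had 11 or more.

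The rule did not keep out every cell with RNA of genes that mark other cell types. Of the 250 cells, 17 (6.80%) held at least 2 of the plasmacytoid dendritic cell (pDC) genes Siglech, Ccr9, Cox6a2, Klk1 and Ly6d. A further kind of mark, at least 1 of the conventional dendritic cell genes Xcr1, Clec9a and Cd209a, was found in 35 cells (14.0%). Neutrophil and monocyte precursor granule genes (Mpo, Elane, Prtn3, Ctsg) marked 6 cells, and the mast cell and basophil gene Cpa3 marked 9. Granule genes summed to 0, 1543, 5.29, 0 and 3.56 CPM, and to 4.86, 4.05, 2.76, 1.66 and 7.35 CPM in C1q-high macrophages. Mast cell and basophil genes summed to 0, 0, 15.9, 61.1 and 0 CPM, and to 4.53, 0, 9.20, 37.0 and 0.446 CPM in macrophages. Marks other than the pDC mark needed as little as 1 UMI, and the part of stray RNA in them was not tested. Any of these marks was carried by 55 cells (22%), namely 3 of 29, 3 of 8, 13 of 40, 10 of 34 and 26 of 139. Where a named gene gains or loses a call against macrophages without these 55 cells, this is stated below. BP replicate 2 stood apart, since 3 of its 8 cells held granule genes and it gave Prtn3 at 0, 1037, 5.29, 0 and 3.56 CPM across the 5 tumours and Elane at 0, 230.3, 0, 0 and 0 CPM. It was left out of the tests because it held fewer than 10 of these cells. T and NK cell genes were almost absent, with a summed level of at most 6.79 CPM over 8 genes, and the neutrophil genes Retnlg, Ngp and Ly6g were at 0 in all 5 sums. Part of this was set by the rule, which asked for 0 UMIs of Cd3e and Nkg7 and limited S100a8 and S100a9. No barcode of a monocyte-like cell occurred in another tumour's kept cells, although 146 barcodes were shared between pairs of tumours among all kept cells.

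Monocyte-like cells were most frequent in PD+MP and least frequent in BP replicate 2. They numbered 29 of 6686, 8 of 10342, 40 of 7718, 34 of 9314 and 139 of 8456 kept cells. Their share was 0.434% of BP replicate 1 (exact binomial 95% interval 0.291% to 0.622%), while BP replicate 2 held 0.0774% (0.0334% to 0.152%). It was 0.518% in MP (0.371% to 0.705%), 0.365% in MP+BP (0.253% to 0.510%) and 1.64% in PD+MP (1.38% to 1.94%). The interval of PD+MP lay above all others and that of BP replicate 2 below all others, while those of BP replicate 1, MP and MP+BP overlapped. These intervals cover counting error only, and the gap between both BP tumours shows that tumours of 1 label can differ by more than that.

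**Figure D2:**
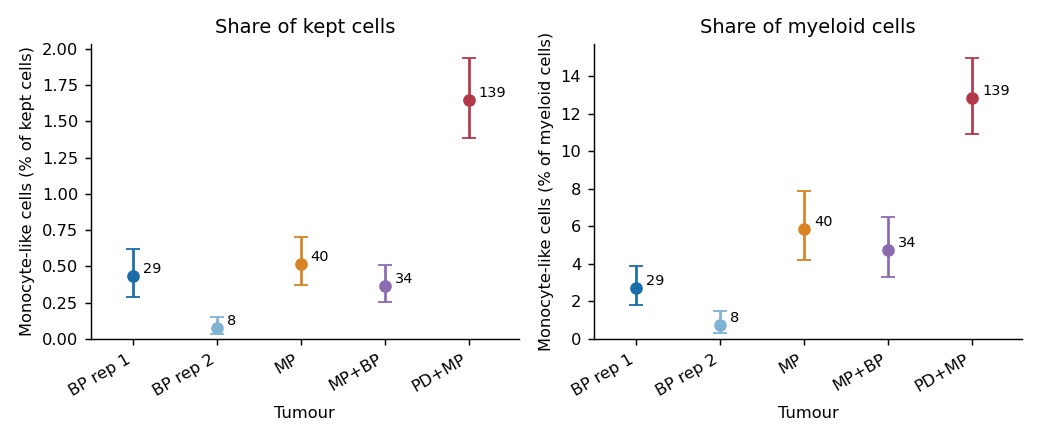
Share of monocyte-like cells among kept cells (left, percent) and among myeloid cells (right, percent) in each of the 5 tumours. Bars are exact binomial 95% intervals, numbers beside the points are cells, and PD+MP (1.64% and 12.9%) lies above the other 4 tumours in both panels.

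The highest and the lowest tumour were the same among myeloid cells, a denominator without tumour cells. Among myeloid cells (Lyz2 and Tyrobp at 3 UMIs or more, low Adgrb3, no Cd3e or Nkg7), monocyte-like cells made up 2.71% (1.82% to 3.86%) of BP replicate 1, while BP replicate 2 held 0.762% (0.329% to 1.5%). They made up 5.87% (4.23% to 7.91%) of MP, 4.72% (3.29% to 6.53%) of MP+BP and 12.9% (10.9% to 15%) of PD+MP. After every cell was thinned to 3000 UMIs before the rule was applied, the shares of kept cells were 0.372%, 0.0662%, 0.508%, 0.336% and 1.67%. Without the 55 marked cells they were 0.389%, 0.0483%, 0.350%, 0.258% and 1.34%. The genes of the rule also varied outside the class. Ms4a4c was detected in 8.5%, 5.35%, 7.93%, 8.55% and 22.2% of C1q-high macrophages and Plac8 in 0.523%, 1.56%, 2.16%, 0.214% and 5.17% of them, both most often in PD+MP. Among SyS background cells (Adgrb3 at 10 UMIs or more), which should lack these genes, Ly6c2 was detected in 0.139%, 0.0848%, 0.0862%, 0.03% and 1.02% and Plac8 in 2.09%, 1.24%, 2.73%, 0.928% and 2.33% of cells, at median depths of 15398, 11791, 14811, 12531 and 12336 UMIs. The part of these levels in the share of PD+MP was not tested. In the monocyte-like sums Xist stood at 1411, 1336, 1020.1, 1575 and 0 CPM and the Y-linked Uty at 0, 0, 0, 0 and 142 CPM. PD+MP differed from the other 4 tumours in both, so the sex of the animal and the label cannot be told apart.

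The 5 libraries held between 89996321 and 118649103 UMIs, and kept cells had medians of 6573 to 8725 UMIs. Monocyte-like sums held 131807, 43412, 189199, 147272 and 562194 UMIs, so that 1 UMI was worth 1.78 CPM in PD+MP and 23 CPM in BP replicate 2. C1q-high macrophages (C1q at 20 UMIs or more and fewer than 2 monocyte genes) numbered 765, 897, 416, 468 and 580. Their mitochondrial share (medians 3.92%, 4.87%, 3.91%, 4.34% and 3.18%) was above that of the monocyte-like cells (1.85%, 1.99%, 2.59%, 2.47% and 1.56%) in every tumour.

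The first comparison asked which other genes separate monocyte-like cells from the C1q-high macrophages of the same tumour. Most tested classical monocyte, adhesion, interferon-response and hypoxia-response genes were higher in monocyte-like sums, and most tissue macrophage and lysosomal genes were lower. The summed level of a list could differ from this in single tumours, as in MP, where interferon-response genes summed to 233 CPM in monocyte-like cells and 270.4 CPM in macrophages. Of 9235 genes tested outside the rule, 856 (9.27%) were higher and 773 (8.37%) lower in monocyte-like sums (edgeR quasi-likelihood test with the tumour as a block, 4 tumours, Benjamini-Hochberg adjusted p under 0.05), and the median log2 fold change was -0.06. Adjusted p-values below come from this test. Because both classes were set apart by opposite limits on C1q and on monocyte genes, genes that travel with those had to differ, and a p-value here says only that a difference repeated across these 4 tumours.

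**Figure D3:**
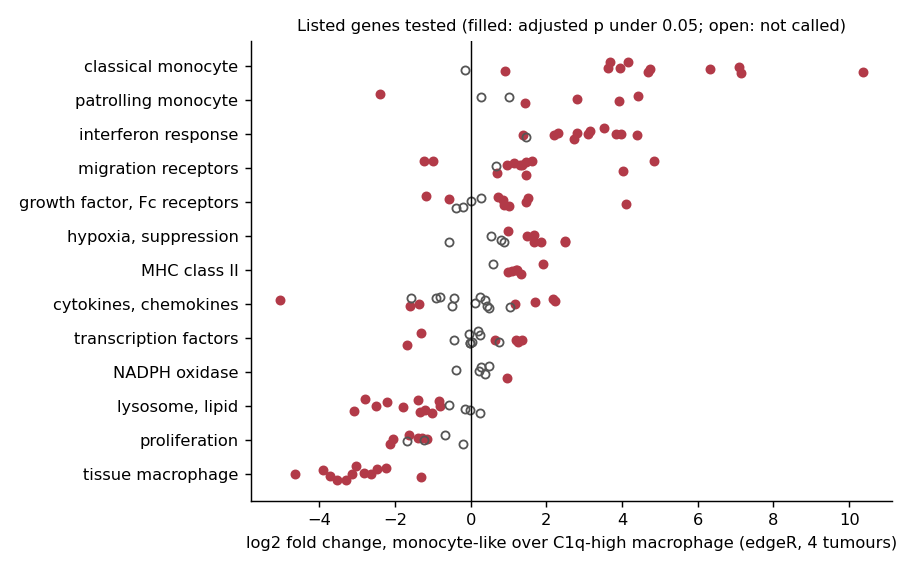
log2 fold change of monocyte-like over C1q-high macrophage sums (horizontal axis, edgeR, 4 tumours) for each tested gene of 13 gene lists (rows), with filled points for adjusted p under 0.05 and open points for the rest. The 12 tissue macrophage genes all lie at or below -1.32, and 11 of 12 classical monocyte genes lie at 0.90 or above.

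Classical monocyte genes were high in the monocyte-like sums of all tumours. Of the 12 genes in this list, 11 were higher and 0 lower, with a median log2 fold change of 4.42. Thbs1, encoding the adhesive glycoprotein thrombospondin 1, stood at 3239.6, 1083, 1849.9, 3232 and 1873 CPM against 122, 51.8, 53.3, 125 and 102 CPM in C1q-high macrophages (log2 fold change 4.73 ± 0.21 SE, adjusted p = 4.54e-11). Every monocyte-like sum lay above every macrophage sum. Fn1, encoding fibronectin, ranged more widely, at 1586, 852, 179.7, 713 and 178 CPM against 114, 9.81, 4.6, 12.9 and 34.8 CPM (log2 fold change 4.16 ± 0.39 SE, adjusted p = 7.34e-07). It was lowest in MP and PD+MP. Gda, encoding guanine deaminase, stood at 288, 622, 338, 190.1 and 174 CPM against 6.71, 0.64, 1.84, 3.74 and 47.9 CPM (log2 fold change 4.67 ± 0.58 SE, adjusted p = 1.53e-05). Clec4e, encoding the receptor Mincle for mycobacterial and damaged-cell lipids, stood at 478, 138, 190.3, 156 and 110.3 CPM against 16.3, 8.53, 26.4, 6.65 and 10.0 CPM (log2 fold change 3.96 ± 0.29 SE, adjusted p = 5.14e-08). F13a1, encoding a coagulation factor subunit, was higher by less (log2 fold change 0.90 ± 0.23 SE, adjusted p = 0.0092), and this call was lost without BP replicate 1 (log2 fold change 0.77) or without MP (0.66). Mgst1, a glutathione transferase, was the member without a call, at -0.15 (adjusted p = 0.76).

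The steepest differences were in genes at or near 0 in macrophages. Hp, encoding haptoglobin, stood at 114, 115, 127, 163 and 87.2 CPM, 135-fold higher (95% counting interval 75.7 to 261) than in macrophages by UMIs pooled over the 4 tumours. Where a class had 0 UMIs, it was set to a floor of 3 over the group. Chil3, encoding the chitinase-like protein Ym1, stood at 273, 230.3, 68.7, 95.1 and 146 CPM, 119-fold higher (95% counting interval 73.7 to 204). Ifitm6 was 75.1-fold higher (95% counting interval 51.9 to 111) and Ifitm1 79.2-fold higher (95% counting interval 53.6 to 121), both members of the interferon-induced transmembrane family. Among these, Ifitm1 varied most, at 660.1, 69.1, 15.9, 20.4 and 114 CPM. Gpr141, an orphan receptor, was 90.8-fold higher (95% counting interval 59.6 to 144). Serpinb2, encoding plasminogen activator inhibitor type 2, had 45 against 0 UMIs (at least 235-fold higher), but stood at 273, 0, 10.6, 20.4 and 7.12 CPM, so that BP replicate 1 held most of it. Ly6d (157 against 0 UMIs, at least 819-fold higher), Klrd1 and Mctp2 were also among the 10 largest increases. Ly6d belonged to the pDC marks, and without the 55 marked cells Ly6d was at 0 by construction and Mctp2 stood at 0, 0, 0, 0 and 0 CPM and Klrd1 at 0, 110.4, 25.8, 0 and 27.8 CPM, too low to test.

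**Figure D4:**
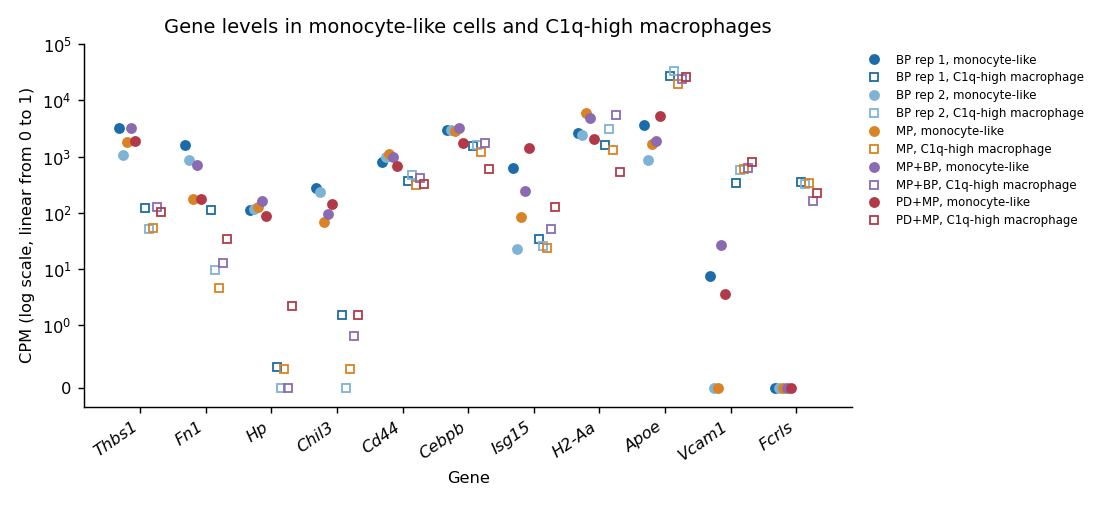
CPM (log scale, linear from 0 to 1) of 11 genes in monocyte-like cells (filled circles) and C1q-high macrophages (open squares) of each of the 5 tumours. Filled circles lie above open squares in every tumour for Thbs1, Fn1, Hp, Chil3 and Cd44 and below them in every tumour for Apoe, Vcam1 and Fcrls.

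Patrolling monocyte genes were mixed. Of 11 listed genes 7 could be tested, 4 were higher and 1 lower, with a median of 1.44. Nr4a1 stood at 220.0, 438, 492, 224 and 343 CPM against 274, 592, 359.6, 335 and 171 CPM and was not called (log2 fold change 0.26 ± 0.24 SE, adjusted p = 0.52). Itgal, the integrin alpha chain of LFA-1, stood at 152, 184, 211, 190.1 and 110.3 CPM and was higher (log2 fold change 2.81 ± 0.25 SE, adjusted p = 3.69e-07). Cx3cr1, the fractalkine receptor, was lower, at 75.9, 46.1, 52.9, 95.1 and 69.4 CPM against 378, 516, 415, 290.2 and 469 CPM (log2 fold change -2.40 ± 0.23 SE, adjusted p = 8.17e-07). Its locus overlaps several genes in the annotation. Adgre4 was higher (log2 fold change 3.91 ± 0.47 SE) at 75.9, 0, 89.9, 61.1 and 30.2 CPM. Treml4 (1.44 ± 0.46 SE, adjusted p = 0.037) lost its call without BP replicate 1, MP or MP+BP (log2 fold changes 1.08, 1.40 and 1.00). Ace, the angiotensin-converting enzyme that marks this subset, was too low to test, at 53.1, 0, 52.9, 20.4 and 1.78 CPM.

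All 12 tested tissue macrophage genes (of 16 listed) were lower, with a median of -3.08, and 11 or 12 were called when any 1 tumour was left out. Apoe, which carries lipids, stood at 3657, 875, 1665, 1881 and 5333 CPM against 26708, 32774, 19119, 23389 and 26072 CPM (log2 fold change -3.02 ± 0.23 SE, adjusted p = 6.65e-08). The ranges did not overlap. Selenop, encoding the selenium transport protein, stood at 114, 115, 74.0, 88.3 and 132 CPM against 1377, 1755, 998, 1353 and 1876 CPM (log2 fold change -3.73 ± 0.20 SE, adjusted p = 7.31e-10). Ms4a7 stood at 220.0, 0, 58.1, 88.3 and 795 CPM, higher in PD+MP than in the other 4 tumours, against 1246, 1292, 923, 965 and 1645 CPM (log2 fold change -2.47 ± 0.34 SE, adjusted p = 3.77e-05). Adgre1, encoding the macrophage antigen F4/80, was at 83.5, 23, 127, 54.3 and 119 CPM against 464, 497, 487, 499.8 and 471 CPM (log2 fold change -2.23 ± 0.23 SE, adjusted p = 1.63e-06). Pf4 differed between tumours by far more than most, at 493, 69.1, 5.29, 6.79 and 961 CPM (log2 fold change -2.83 ± 0.64 SE, adjusted p = 0.0044). Spp1, encoding osteopontin, was also uneven, at 1919.5, 529.8, 52.9, 143 and 1738 CPM against 1822, 336, 632, 385 and 4608 CPM (log2 fold change -1.32 ± 0.34 SE, adjusted p = 0.01). In both BP tumours its level in monocyte-like cells was above that in macrophages, but few cells held most of it. In BP replicate 1, 1 cell held 49.8% of the Spp1 UMIs and 3 cells held 71.5%. In BP replicate 2 it was found in 3 of 8 cells. Gpnmb of the same list was not tested, and stood at 0, 46.1, 0, 0 and 148 CPM against 32.7, 1.07, 0, 2.08 and 142 CPM, which is named here after its values were seen.

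The macrophage side was led by genes nearly missing from monocyte-like cells. Fcrls, a scavenger-type receptor of microglia and other resident macrophages, had 0 against 4609 UMIs and was at least 98.2-fold lower. Vcam1, the adhesion molecule that binds the integrin VLA-4, was 82.2-fold lower (95% counting interval 39.9 to 205), at 7.59, 0, 0, 27.2 and 3.56 CPM against 338, 578, 596, 632 and 785 CPM. Gpr34, a lysophosphatidylserine receptor, was 54.7-fold lower (95% counting interval 15.1 to 452). Rapgef5, a guanine nucleotide exchange factor, was 57.9-fold lower (95% counting interval 16.0 to 478). The calcium channel gene Cacna1a was 42.0-fold lower (95% counting interval 19.3 to 114), the RNA-binding protein gene Samd4 41.1-fold lower (95% counting interval 14.0 to 199.5), and the cyclooxygenase gene Ptgs1 35.7-fold lower (95% counting interval 9.87 to 295). With 1 UMI each in the monocyte-like cells, Pdgfc (pooled ratio 89.3-fold lower (95% counting interval 16.0 to 3528)), Stard13 (103-fold lower (95% counting interval 18.5 to 4083)) and Col14a1 (53.6-fold lower (95% counting interval 9.59 to 2119)) had wide intervals. Lysosomal and lipid-handling genes followed the same direction, with 0 of 15 higher, 11 lower and a median of -1.20. The protease genes Ctsb (-1.39, adjusted p = 9.49e-05), Lgmn (-1.03, 0.000566) and Ctsz (-0.81, 0.0021) and the lysosomal membrane gene Lamp1 (-0.85, 0.0015) were lower on the log2 scale, whereas Psap (-0.02, 0.95) and Npc2 (0.26, 0.38) were not called.

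Genes for adhesion and migration were mostly higher in monocyte-like sums. Of 13 tested, 10 were higher and 2 lower, with a median of 1.31. Cd44, the hyaluronan receptor, stood at 804, 991, 1094, 964 and 690.1 CPM against 375, 468, 309, 408 and 326 CPM (log2 fold change 1.36 ± 0.18 SE, adjusted p = 3.41e-05). No monocyte-like sum fell within the macrophage range. Itgam (432, 92.1, 206, 163 and 217 against 105, 59.1, 59.8, 95.2 and 76.0 CPM, log2 fold change 1.61 ± 0.22 SE, adjusted p = 3.81e-05) and Itgb2 (log2 fold change 1.15 ± 0.21 SE, adjusted p = 0.000593) encode both chains of the integrin Mac-1 and were higher. Cxcr4, the receptor of the marrow retention signal CXCL12, had log2 fold change 0.69 ± 0.18 SE, adjusted p = 0.012 and lost this call without BP replicate 1, MP or MP+BP (log2 fold changes 0.58, 0.52 and 0.60). The complement receptor gene C5ar1 was lower (log2 fold change -1.0 ± 0.29 SE, adjusted p = 0.021), a call lost without MP (-0.77), MP+BP (-0.78) or the marked cells (-0.74).

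Among growth factor, cytokine and Fc receptors, 7 of 13 were higher and 2 lower, with a median of 0.73. Csf2rb, the common beta chain that signals for GM-CSF, was higher, at 250.4, 299, 217, 367 and 139 CPM against 114, 78.0, 65.3, 99.4 and 64.9 CPM (log2 fold change 1.51 ± 0.20 SE, adjusted p = 3.07e-05). Tnfrsf1b, a TNF receptor, was higher (log2 fold change 0.85 ± 0.19 SE, adjusted p = 0.0034). Ifngr1, the ligand-binding chain of the interferon gamma receptor, was higher (log2 fold change 0.73 ± 0.19 SE, adjusted p = 0.014), but not without BP replicate 1 (0.71), MP (0.46) or the marked cells (0.59). Csf1r, encoding the M-CSF receptor, was lower, at 220.0, 184, 259, 326 and 217 CPM against 362, 498, 389, 396 and 400.0 CPM (log2 fold change -0.57 ± 0.18 SE, adjusted p = 0.033), and this call was lost without BP replicate 1 (-0.58) or PD+MP (-0.46) and without the marked cells (-0.38). The Fc receptor genes Fcer1g (-0.21, adjusted p = 0.44) and Fcgr2b (-0.38, 0.22) were not called.

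Transcription factors differed less, with 4 of 14 higher, 2 lower and a median of 0.12. Cebpb, a driver of the inflammatory monocyte programme, stood at 2951, 2972, 2833, 3198 and 1775 CPM against 1522, 1618, 1217, 1720.5 and 605 CPM (log2 fold change 1.21 ± 0.18 SE, adjusted p = 7.25e-05). Its ranges did not overlap. Hif1a, the oxygen-regulated factor, was higher (log2 fold change 1.36 ± 0.20 SE, adjusted p = 0.000105). The myeloid master regulator Spi1 (-0.02, adjusted p = 0.97), Zeb2 (0.20, 0.53) and Klf4 (0.75, 0.059) were not called. Klf4 was called without MP+BP (0.96), without the marked cells (0.94), with at least 3 monocyte genes (0.79) and without a count filter (0.59). Of 6 genes of the NADPH oxidase, the enzyme of the respiratory burst, 1 was higher. This was Cybb, its catalytic subunit, at 797, 529.8, 724, 747 and 667 CPM against 349, 373, 501, 315 and 421 CPM (log2 fold change 0.96 ± 0.17 SE, adjusted p = 0.000695), while Cyba, Rac2, Ncf4 and Ncf1 lay between -0.39 and 0.48 on the log2 scale without a call.

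Secreted signals showed no common direction, with 4 of 18 cytokine and chemokine genes higher, 3 lower and a median of 0.17. Il1b, encoding the fever-inducing cytokine interleukin 1 beta, stood at 3126, 852, 1416, 1528 and 861 CPM against 415, 959.9, 394, 501 and 177 CPM (log2 fold change 2.22 ± 0.21 SE, adjusted p = 7.26e-07). Of the Il1b UMIs of BP replicate 1, a single cell held 35.9% and 3 cells held 74.0%. Ccl6 (log2 fold change 1.69 ± 0.29 SE, adjusted p = 0.000364) and Ccl9 (log2 fold change 2.18 ± 0.21 SE, adjusted p = 9.32e-07) were higher as well. Cxcl2, a neutrophil attractant, stood at 9461, 346, 407, 163 and 591 CPM, far higher in BP replicate 1 than elsewhere, and was not called (log2 fold change 0.42 ± 0.66 SE, adjusted p = 0.74). In BP replicate 1 a single cell held 47.4% of its UMIs and 3 cells held 88.0%. Likewise 1 cell of that tumour held 86.6% of the Cxcl1 UMIs and 1 held 73.5% of the Il1a UMIs, both chosen here after their values were seen. The summed level of the 19 genes was 21550, 2142, 3330, 3646 and 7010 CPM. Ccl4 (2238, 92.1, 143, 20.4 and 1524 CPM, adjusted p = 0.47) and Ccl2, which is the ligand of CCR2 (622, 23, 31.7, 13.6 and 1462 CPM, adjusted p = 0.74), were also uneven, Ccl4 being highest in BP replicate 1 and Ccl2 in PD+MP.

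Genes of the hypoxia response and of suppressive myeloid cells were higher in 7 of 11 cases and lower in 0, with a median of 1.48, and in 4 cases without BP replicate 1. Vegfa, encoding the angiogenic growth factor, stood at 174, 138, 127, 169.8 and 117 CPM against 45.3, 31.8, 13.8, 26.2 and 26.1 CPM (log2 fold change 2.50 ± 0.25 SE, adjusted p = 1.13e-06). Hilpda, a lipid droplet protein gene induced by low oxygen, was higher (log2 fold change 1.48 ± 0.27 SE, adjusted p = 0.000675). Pgk1, a glycolytic enzyme gene, was higher (log2 fold change 0.99 ± 0.22 SE, adjusted p = 0.0032) but not without BP replicate 1 (0.74), and Ldha was not called (log2 fold change 0.54 ± 0.19 SE, adjusted p = 0.054). Arg1, the arginase of suppressive myeloid cells, stood at 1199, 0, 0, 74.7 and 46.2 CPM, was found in 11, 0, 0, 6 and 9 cells and was not called (log2 fold change 0.80 ± 0.50 SE, adjusted p = 0.33). Hmox1, encoding haem oxygenase 1, was not called either (log2 fold change -0.56 ± 0.30 SE, adjusted p = 0.23) and stood at 1707, 346, 63.4, 359.9 and 1153 CPM.

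Proliferation genes were lower in 6 of 10 cases and higher in 0, with a median of -1.34. Top2a stood at 15.2, 299, 89.9, 6.79 and 23.1 CPM against 86.9, 60.8, 167, 61.1 and 93.4 CPM (log2 fold change -1.64 ± 0.31 SE, adjusted p = 0.000918) and Mki67 at 37.9, 299, 52.9, 27.2 and 12.5 CPM (log2 fold change -1.40 ± 0.30 SE, adjusted p = 0.0027). BP replicate 2, which was not in the fit, held the highest level of both. With it included, 1 of the 10 genes was called. Birc5 was lower (-2.12, adjusted p = 0.000497), as were Cdk1 (-1.28, 0.022) and Tyms (-1.15, 0.031). Without PD+MP both latter calls were lost (-1.23 and -1.11), and Tyms also lost its call without BP replicate 1 (-1.15) or MP (-1.39). Pcna was not called (-0.20, 0.60).

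Interferon-response genes differed widely between tumours among the monocyte-like cells and were mostly higher there than in macrophages. These genes are switched on when interferons activate STAT and IRF factors, and many carry the interferon-stimulated response element in their promoters. Their summed level over the 13 listed genes found in the files was 2944, 69.1, 233, 1643 and 5920 CPM in monocyte-like cells and 272, 252, 270.4, 416 and 648 CPM in C1q-high macrophages. PD+MP was highest in both classes, and BP replicate 2 and MP were lowest in the monocyte-like cells. In the comparison of both classes, 11 of 12 tested genes were higher and 0 lower, with a median of 2.96, and all 12 were higher without the marked cells. Without PD+MP 8 of 9 tested genes were higher. SyS background cells held a summed 532, 332, 307, 177 and 189.7 CPM, highest in BP replicate 1 and not in PD+MP.

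Among single genes, Isg15, encoding a ubiquitin-like modifier, stood at 615, 23, 84.6, 244 and 1416 CPM against 34.5, 25.4, 23.6, 51.6 and 129 CPM (log2 fold change 3.11 ± 0.30 SE, adjusted p = 8.82e-07). Rsad2, encoding the antiviral enzyme viperin, stood at 744, 0, 10.6, 102 and 1105 CPM against 9.22, 11.1, 5.83, 19.5 and 39.9 CPM (log2 fold change 4.4 ± 0.54 SE, adjusted p = 1.37e-05). Irf7, the factor that amplifies type I interferon production, stood at 83.5, 0, 10.6, 169.8 and 564 CPM against 9.56, 4.69, 6.13, 21.6 and 76.0 CPM (log2 fold change 2.82 ± 0.27 SE, adjusted p = 8.63e-07). PD+MP held the highest monocyte-like level of each of these 3 genes. Ifit3, an antiviral gene, stood at 189.7, 0, 0, 27.2 and 567 CPM (log2 fold change 2.74 ± 0.46 SE, adjusted p = 0.000339), and DESeq2 did not call it. Cxcl10, the attractant of T cells, stood at 819, 23, 10.6, 244 and 382 CPM, highest in BP replicate 1, against 127, 142, 173, 99.4 and 70.2 CPM, and was not called (log2 fold change 1.47 ± 0.53 SE, adjusted p = 0.067), although it was without MP (2.18) or the marked cells (1.76). In BP replicate 1 a single cell held 81.5% of the Cxcl10 UMIs and 3 cells held 95.4%, whereas the top cell of PD+MP held 15.8%.

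Promoters of these genes from RefSeq (build GRCm38.p6, 250 bases before to 50 after the start site) were searched on both strands for TTTC followed by any 2 bases and another TTTC, the core of the interferon-stimulated response element. It was found in 6 of the 11 list members that matched the table (Isg15, Rsad2, Ifit1, Ifit3, Cxcl10 and Gbp2) and in 1079 of 27025 genes (3.99%) overall. Irf7, Ifi44, Ifit2, Oasl2 and Cxcl9 held none in this window. Below, 60 bases around 1 match in each of 4 promoters are shown as examples from genes described above, in the direction of the gene, with the match in capitals. Isg15 (chr4:156200856-156200915, minus strand) held 3 overlapping matches, of which the middle is marked, and its match and that of Cxcl10 read as GAAA, 2 bases and GAAA because they lie on the opposite strand. Rsad2 lies at chr12:26456538-26456597 (minus strand), Ifit3 at chr19:34583348-34583407 (plus strand) and Cxcl10 at chr5:92349068-92349127 (minus strand).
Isg15: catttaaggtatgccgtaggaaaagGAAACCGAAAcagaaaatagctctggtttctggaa
Rsad2: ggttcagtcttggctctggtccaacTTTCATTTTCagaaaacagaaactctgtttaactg
Ifit3: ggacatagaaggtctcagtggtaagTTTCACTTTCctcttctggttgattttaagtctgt
Cxcl10: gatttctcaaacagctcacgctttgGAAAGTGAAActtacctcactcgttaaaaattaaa
The match ends 62 bases before the start site in Isg15, 110 in Rsad2, 146 in Ifit3 and 203 in Cxcl10. A match describes these letters only, and no binding was measured here.

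In PD+MP the interferon-response RNA was spread over many cells, and elsewhere it sat in few. Isg15 was detected in 7, 1, 9, 8 and 98 cells, Rsad2 in 6, 0, 1, 2 and 79 and Ifit3 in 5, 0, 0, 2 and 67. In BP replicate 1, 3 cells held 92.0% of the Ifit3 UMIs, whereas 3 cells of PD+MP held 18.8%. Per cell, the 13 genes together had a median of 2.19, 0, 1.61, 3.13 and 40.0 UMIs per 10000. A level of 20 or more, a limit set after the values were seen, was reached by 5 of 29, 0 of 8, 0 of 40, 3 of 34 and 87 of 139 cells, and 11 of all 250 cells lay between 15 and 25. With cells thinned to 1500 UMIs, which left out 2 cells of BP replicate 1, the matching limit of 3 UMIs was reached by 4, 0, 1, 3 and 89 cells.

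MHC class II genes, which present antigen to helper T cells, divided the monocyte-like cells in another way. Their summed level over 7 genes was 10570, 9145, 24150, 20420 and 8844 CPM in monocyte-like cells, highest in MP and MP+BP, and 7071, 12840, 5797, 22040 and 2342 CPM in C1q-high macrophages. H2-Aa stood at 2640.2, 2373, 5967, 4746 and 2076 CPM against 1588, 3068, 1331, 5541 and 539.8 CPM (log2 fold change 1.22 ± 0.31 SE, adjusted p = 0.0096) and Cd74, the invariant chain, at 4241, 2972, 7849, 7136 and 2962 CPM against 2818, 4714, 2018, 7396 and 722 CPM (log2 fold change 1.19 ± 0.29 SE, adjusted p = 0.0078). Of the 7 genes 6 were higher, H2-DMa being the exception (0.58, adjusted p = 0.078), with H2-Ab1 at 1.33, H2-Eb1 at 1.08 and H2-DMb1 at 0.99 on the log2 scale and a median of 1.19. These calls were fragile. Of the 7 genes, 0 were called without MP, 0 without the marked cells, 1 with BP replicate 2 included and 4 without PD+MP. After thinning to 1500 UMIs 1 of 6 tested genes was called, with H2-Aa at 0.52, H2-Ab1 at 0.65, H2-Eb1 at 0.37 and Cd74 at 0.67 without a call, and with at least 10 counts in every sum 2 of 6 were called. Without the marked cells, which include the conventional dendritic cell marks, the summed level was 7754, 21520, 23810, 12890 and 4944 CPM.

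At the limits used here, 13 of the 250 cells were high in both interferon-response and MHC class II RNA, 11 of them in PD+MP. Per cell, H2-Aa, H2-Ab1, H2-Eb1 and Cd74 together had a median of 5.77, 2.88, 226, 105 and 5.30 UMIs per 10000. At limits of 20 for interferon and 100 for MHC class II, the latter also set after the values were seen, 82 of the 250 cells passed the interferon limit only, 73 the MHC limit only, 13 both and 82 neither. In PD+MP these numbers were 76, 21, 11 and 31, and in MP 0, 25, 0 and 15. A further 17 cells lay between 75 and 125 for MHC class II. After thinning to 1500 UMIs the numbers over 248 cells were 83, 67, 14 and 84. Since tumours differ in both scores, no test over cells was made.

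**Figure D5:**
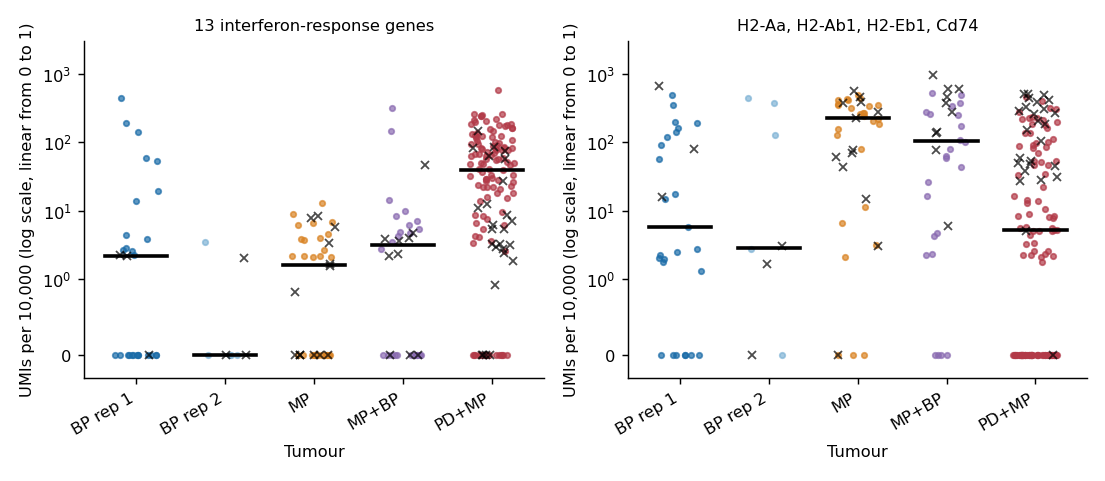
UMIs per 10000 UMIs of a cell (log scale, linear from 0 to 1) of 13 interferon-response genes (left) and of 4 MHC class II genes (right) in each monocyte-like cell of the 5 tumours. Horizontal lines are medians and crosses are the 55 cells marked by genes of other cell types, and PD+MP has the highest interferon median (40.0) while MP has the highest MHC class II median (226).

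The cells in which Ly6c2 was detected differed from the others in the same 2 lists, which is a description because Ly6c2 is a gene of the rule. With Ly6c2 detected, the summed MHC class II level was 4931, 1440, 15200, 15490 and 5657 CPM, and with Ly6c2 not detected it was 16350, 30610, 29070, 23410 and 17160 CPM. It was lower where Ly6c2 was detected in all 5 tumours. The interferon-response sum went the other way in 4 of 5 tumours, at 5591, 62.6, 491, 2321 and 6941 CPM with Ly6c2 and 230.5, 87.2, 90.1, 1232 and 3255 CPM without it, BP replicate 2 being the exception with 5 and 3 cells. Classical monocyte genes showed no common order, at 5965, 6386, 3633, 5848 and 3895 CPM with and 7682, 262, 3269, 5093 and 2273 CPM without. The cells marked by genes of other cell types were kept in this split. The pDC gene Siglech stood at 345, 0, 223, 162 and 246 CPM with Ly6c2 and 0, 0, 0, 10.9 and 0 CPM without it. Cd209a stood at 0, 0, 119, 54.0 and 93.5 CPM with and 61.5, 0, 131, 120 and 148 CPM without. The part of such cells in these differences was not tested.

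Intermediate cells lay between both classes in every tumour for tissue macrophage genes, and in 4 of 5 tumours for classical monocyte genes. They were chosen for carrying both monocyte genes and C1q, so for genes that travel with these the order was partly set by the rule. BP replicate 2 held only 3 intermediate and 8 monocyte-like cells. Fibroblast and pericyte genes summed to 859, 45.3, 7.62, 1133 and 202 CPM in intermediate cells. In C1q-high macrophages they summed to 51.8, 147, 80.9, 179 and 86.5 CPM. Endothelial genes summed to 522, 0, 99.1, 109.7 and 99.8 CPM in intermediate cells and 86.0, 109, 111, 129 and 99.2 CPM in macrophages. How many intermediate cells mixed RNA of 2 cells was not tested. Tissue macrophage genes summed to 6585, 1751, 2019, 2444 and 9564 CPM in monocyte-like cells, 12420, 19890, 9881, 10020 and 25120 in intermediate cells and 34180, 38400, 25290, 29230 and 39370 in C1q-high macrophages. Classical monocyte genes summed to 6813, 4768, 3399, 5378 and 3445 CPM in monocyte-like cells, 2197, 226, 1113, 597 and 1393 in intermediate cells and 649.8, 288, 224, 328 and 601 in C1q-high macrophages. For the interferon response the intermediate cells stood at 1071, 90.6, 602, 719 and 3845 CPM, above macrophages in every tumour but BP replicate 2. With intermediate cells as the comparator, 124 of 2884 tested genes were higher and 94 lower in monocyte-like sums, among them 6 of 10 classical monocyte genes higher, 8 of 8 tissue macrophage genes lower and 0 of 7 interferon-response genes in either direction.

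The second comparison set monocyte-like cells against neutrophil-like cells (S100a8 and S100a9 at 30 UMIs or more, C1q at 3 or less, and at least 1 of Csf3r, Retnlg, Mmp9 and Cxcr2 detected), the other circulating myeloid cells with shared inflammatory genes. Neutrophil-like cells numbered 42, 11, 12, 2 and 1, so that BP replicate 1 and MP alone could be paired and 1 residual degree of freedom remained. Of 2452 genes tested, 65 (2.65%) were higher and 108 (4.4%) lower in monocyte-like sums by edgeR. Without TMM scaling 250 were higher and 209 lower. The genes that set these classes apart were left out, but genes that travel with them, such as granule genes, had to differ. All 6 tested MHC class II genes were higher. H2-Aa (1477 against 0 UMIs) was at least 247-fold higher, H2-Ab1 at least 162-fold higher and Cd74 513-fold higher (95% counting interval 142 to 4236). Ms4a6c (at least 34.6-fold higher), the sodium-calcium exchanger gene Slc8a1 (at least 20.6-fold higher), the coagulation gene F13a1 (at least 10.2-fold higher) and Aif1, the actin-binding Iba1 (at least 18.7-fold higher), followed. Cd83 (at least 15-fold higher) and the oxysterol receptor gene Gpr183 (at least 16.4-fold higher) were also among the 10 largest increases.

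Neutrophil-like cells in turn held granule and acute-phase genes that had few or no UMIs in monocyte-like cells. Lcn2, the iron-sequestering lipocalin, was 165-fold lower (95% counting interval 79.4 to 411). The protease inhibitor gene Cstdc5 (at least 141-fold lower), Wfdc21 (at least 102-fold lower) and Lrg1 (at least 43.9-fold lower) had 0 UMIs in the monocyte-like cells. Fpr1, a receptor for bacterial formyl peptides, was at least 17.9-fold lower, Steap4 at least 12-fold lower, Ankrd22 at least 18.6-fold lower, Cc2d2b at least 15.3-fold lower, Myo1d at least 32.6-fold lower and Syne1 at least 48.5-fold lower. Among inflammatory genes present in both classes, none of these 4 was called, with Thbs1 at log2 1.56 (adjusted p = 0.28), Il1b at -1.19 (0.42), Clec4e at -1.77 (0.12) and Cebpb at -0.91 (0.43). Of 11 tested classical monocyte genes, 2 were higher, 2 lower and 7 not called. Over all tested genes 2.65% were higher and 4.4% lower, so this list was called more often than the rest. With 1 residual degree of freedom, a gene without a call is not shown to be at equal levels. After thinning to 1500 UMIs Thbs1 (1.60), Il1b (-1.66) and Clec4e (-1.93) were called, and with at least 3 monocyte genes Il1b (-1.71) and Clec4e (-1.88). By pooled UMIs Thbs1 was 4.10-fold higher (95% counting interval 3.31 to 5.13) and Clec4e 2.98-fold lower (95% counting interval 2.30 to 3.88). Hp (-3.12, 0.017) was lower in monocyte-like than in neutrophil-like cells. Of the genes named by size here, DESeq2 called Slc8a1, Cd74, Cd83, Lrg1 and Lcn2.

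The third comparison set the monocyte-like sums of tumours with a biphasic label (BP replicate 1 and MP+BP) against MP and PD+MP. Of 2974 genes 0 (0.0%) were called by edgeR. Unadjusted p-values fell under 0.05 for 47 genes that were higher and 51 that were lower in the biphasic-labelled tumours, and DESeq2 called 1 gene. Leaving out MP gave 13 higher and 44 lower, leaving out PD+MP 25 and 4, and leaving out MP+BP 6 and 0, with a single tumour on 1 side that is assumed to vary like the others. Fn1 had the smallest p (log2 fold change 2.63 ± 0.50 SE, adjusted p = 0.97). With 2 tumours a side, an exact permutation test of a single gene could not reach 0.05. The summed interferon, MHC class II and cytokine levels given above overlapped between these sides. PD+MP alone was the highest of the interferon sum, BP replicate 1 alone of the cytokine sum, and MP and MP+BP of the MHC class II sum.

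Genes of cells outside the myeloid lineage were few in the monocyte-like sums. For SyS genes this was partly set by the limit on Adgrb3. SyS genes (Nxph1, Reln, Sox2, Epcam, Cbln4) summed to 30.4, 46.1, 42.3, 67.9 and 32.0 CPM against 585, 533, 918, 997 and 633 CPM in SyS background cells. In C1q-high macrophages SyS genes summed to 13.8, 38.6, 26.7, 62.4 and 21.2 CPM, below the monocyte-like sum in every tumour. Endothelial genes summed to 53.1, 46.1, 95.1, 143 and 123 CPM, fibroblast and pericyte genes to 37.9, 23, 42.3, 67.9 and 42.7 CPM, B cell genes to 0, 0, 10.6, 27.2 and 7.12 CPM and globin genes to 144, 46.1, 26.4, 6.79 and 60.5 CPM. Of the tested genes in these 5 lists (10 in all), 0 were called against C1q-high macrophages by edgeR. Over all tested genes 9.27% were higher and 8.37% lower, so 0 of 10 genes at such low levels does not show equal levels. In the pDC list 5 of 7 genes were higher, with a median of 4.69. Siglech stood at 174, 0, 79.3, 67.9 and 178 CPM (log2 fold change 4.74 ± 0.33 SE, adjusted p = 2.56e-08), Cox6a2 at 30.3, 0, 79.3, 61.1 and 196 CPM (log2 fold change 4.41 ± 0.39 SE, adjusted p = 3.23e-07) and Ccr9 at 22.8, 23, 52.9, 54.3 and 97.8 CPM (log2 fold change 4.69 ± 0.48 SE, adjusted p = 1.56e-06), while Bst2, which interferon also induces (0.39, adjusted p = 0.25), and Tcf4 (0.18, 0.62) were not called. Without the 55 marked cells 0 of the 2 genes still tested were higher and Tcf4 was lower (-0.78). Of the conventional dendritic cell genes, Cd209a was higher (log2 fold change 4.99 ± 0.54 SE, adjusted p = 3.06e-06) at 30.3, 0, 127, 95.1 and 108 CPM, all of it in the marked cells by construction. Neutrophil genes other than Mmp8 (log2 fold change 3.63 ± 0.69 SE, adjusted p = 0.000975) and Csf3r (log2 fold change 0.53 ± 0.29 SE, adjusted p = 0.25) were too low to test.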

How the data were processed

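Single cells of 5 hSS2 tumours were profiled by 10x Genomics 3′ single-cell RNA-seq. The deposited filtered matrices hold UMI counts per gene and cell, made by the authors with Cell Ranger 7.2.0 (file header), and the submitters' processing notes name the build mm10. No sample was pooled. Gene positions are from the GENCODE annotation of GRCm38, which matched 32235 of 32286 features. It is not stated whether both BP tumours came from separate animals, so p-values measure the spread between tumours as labelled.

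The cells and gene lists were chosen with earlier results of these data known. Cells with at least 750 genes and at most 25% mitochondrial UMIs were kept, classes were set by UMI limits, and no cells were clustered. UMIs were summed per tumour and class, and sums of fewer than 10 cells were left out, which removed BP replicate 2 from the tests. edgeR 4.0.16 (quasi-likelihood test, TMM, filterByExpr, R 4.3.3) was fitted with the tumour as a block for class comparisons, since both sums come from the same tumour. The p-values were adjusted by Benjamini-Hochberg over all genes that passed the count filter. For class comparisons, genes of the rule were then left out of the counts of calls. Genes were named by a rule, namely the 10 largest changes in each direction among genes with adjusted p under 0.05, the same direction in every tumour fitted and at least 50 CPM in the higher class, plus up to 6 members of each list by mean level. Predicted, mitochondrial, ribosomal and haemoglobin genes were skipped, and some genes that the rule names are not reported here. Pooled folds have exact 95% counting intervals, and a class at 0 was set to 3 UMIs. Intervals and floors cover counting error only. Scripts were tested on simulated counts. Alternatives were DESeq2 1.42.0, no scaling, other count filters, no block, thinning, stricter rules and leaving out tumours. Doublets were kept in the main analysis. Scrublet (scanpy 1.11.5, Python 3.11.15) marked 0 cells in MP+BP and PD+MP at its automatic threshold, so the cells with the highest scores were removed instead as an alternative, which took 5 monocyte-like cells.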

Additional observations from a re-analysis of the deposited data

Results flagged for a closer look

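Among 26 sets of 5 tumour values (shares and summed list levels in the monocyte-like cells), 7 had a tumour farther from the rest than Dixon's 95% critical value of 0.71 for the gap divided by the range, where chance flags about 1 set in 20. The share among kept cells was 1.64% in PD+MP (gap over range 0.719), whereas the share among myeloid cells was not past the critical value (0.577). The patrolling monocyte sum was 1040 CPM in MP (0.743). Cytokine and chemokine genes summed to 21600 CPM in BP replicate 1 (0.749), where few cells held most of the Cxcl2 UMIs. In BP replicate 2, with 8 cells, proliferation genes summed to 1410 CPM (0.809) and precursor granule genes to 1540 CPM (0.997). Neutrophil genes summed to 281 CPM in BP replicate 1 (0.822), and mast cell and basophil genes to 61.1 CPM in MP+BP (0.741).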

How the results depend on the processing

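Of 1970 gene values recomputed against C1q-high macrophages, 1811 kept their direction and side of the threshold, 123 lost a call, 32 gained one and 4 reversed. Reversals were Tcf4 without the marked cells (-0.78) and, with intermediate cells as comparator, Irf7 (-0.028), Csf1r (0.0233) and Ifit3 (-0.0343). Against neutrophil-like cells 725 of 805 kept both, 24 lost a call, 56 gained one and 0 reversed. The cause of the shifts below was not tested.

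Against macrophages, counts of higher and lower genes were 325 and 266 with at least 10 counts in every sum, 329 and 432 after thinning to 1500 UMIs, and 124 and 94 with intermediate cells as comparator, and 1183 were lower with no filter. Leaving out 1 tumour gave 618 to 742 higher and 610 to 776 lower. Without the tumour block (the pairing of sums within a tumour) 695 were higher and 607 lower, and 0 of 7 MHC class II genes were called. DESeq2 called 4 of these 7, and thinning left 1 of 6.

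Against neutrophil-like cells the counts were 36 and 58 with DESeq2, 250 and 209 without scaling, 152 and 173 without the tumour block, 218 and 177 with at least 3 monocyte genes, 148 and 178 with C1q at 0, and 179 and 194 without the marked cells. After thinning 183 were higher, and with at least 10 counts 48 were lower. Leaving out a tumour could not be fitted, since 1 tumour would remain.

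For biphasic-labelled tumours DESeq2 called 1 gene higher, no filter gave 26 higher and 23 lower, and leaving out 1 tumour gave 0 to 25 higher and 0 to 44 lower.

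Requiring 3 monocyte genes changed the shares of kept and of myeloid cells to 0.209% and 1.31% in BP replicate 1, 0.207% and 2.35% in MP, 0.204% and 2.64% in MP+BP, and 1.19% and 9.34% in PD+MP. Without the marked cells they were 0.350% and 3.96% in MP and 1.34% and 10.5% in PD+MP. In PD+MP they were 1.29% and 10.1% with C1q at 0, and 1.35% and 10.5% with at least 1500 genes. PD+MP stayed highest and BP replicate 2 lowest under each of these settings. Leaving out marked cells, intermediate cells as comparator and including BP replicate 2 were chosen after seeing the data.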
